A study of Caenorhabditis elegans with 20 samples.

Results

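A set of 8 genes at the head of fat synthesis and of the fasting response in *Caenorhabditis elegans* was followed through ivermectin (IVM) exposure. They were *sbp-1*, *mdt-15*, *nhr-49*, *nhr-80*, *nhr-13*, *nhr-66*, *pod-2* and *fasn-1*, chosen by name and found through the gene that the platform table gives to each probeset. The choice was made with earlier results of these data known. Each of the 8 genes had 1 probeset of its own, and a further probeset was given to *mdt-15* together with R12B2.6, so that 9 of the 20563 probesets tested belonged to them. All 20 arrays held RNA of whole nematodes of strain DA1316, which is mutant in *avr-14*, *avr-15* and *glc-1*. These encode subunits of the glutamate-gated chloride channels that IVM acts on. The sample labels give the mutations as ad1302 in *avr-14*, ad1250 in *avr-15* and pk54 in *glc-1*. The paper names another allele of *avr-15*, a difference that was not resolved. Worms were 53 hr old counted from L1, were kept at 20°C on NGM plates with an OP50 lawn, and were exposed for 4 hr. The 4 groups, of 5 arrays each, were 100 ng/ml IVM in 0.001% v/v DMSO, its control with that share of DMSO alone, 1 µg/ml IVM in 0.01% v/v DMSO, and its own DMSO control. Each suspension of worms was split between drug and control plates, and arrays with the same replicate number within an experiment were therefore treated as a pair.

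SBP-1 is the worm homologue of the sterol regulatory element binding proteins, transcription factors that switch on genes for making fatty acids. MDT-15 is a subunit of Mediator, the complex that links transcription factors to RNA polymerase, and it serves as a co-activator of both SBP-1 and NHR-49. NHR-49 is a nuclear receptor that controls fat breakdown and desaturation in fed and fasted worms, and NHR-80, NHR-13 and NHR-66 are receptors known to pair with it on different sets of target genes. POD-2 is acetyl-CoA carboxylase, which makes malonyl-CoA, and FASN-1 is fatty acid synthase, which builds palmitate from it. Much of this network works in the intestine, the main fat store of the worm.

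None of the 8 genes passed an adjusted p of 0.05 at either dose, by limma with Benjamini-Hochberg adjustment over all probesets. At 1 µg/ml, 0 of 8 were called while 3.48% of all probesets were called. At an unadjusted p under 0.05 the count was 1 of 8, *nhr-49*, against 15.6% of all probesets. The lower dose also gave 0 of 8, with 0% of all probesets called by limma, and 1 of 8, *pod-2*, at an unadjusted p under 0.05 against 4.35%. The fitted changes at 1 µg/ml were above 0 for 4 genes and below 0 for 4, with a median of 0.03 on the log2 scale beside -0.01 over all probesets. Drug and control arrays overlapped for all 8 genes at both doses. Among all probesets, the groups did not overlap and IVM was higher for 0.987% at 1 µg/ml and 0.0729% at 100 ng/ml, or lower for 0.608% and 0.0827%. Of 104 measured genes in pathways around them, 25 passed at 1 µg/ml, and 1 of these 25 did without the replicate block. The pathway lists were drawn up with earlier results of the same arrays known, so this count is a description and no test against the 8.

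Several features of the arrays bear on every value. The array medians lay between 5.58 and 5.71 on the log2 scale. Leaving out replicate 4 of the 100 ng/ml experiment raised the share of all probesets called at that dose to 1.52%, and the changes of the 8 genes at 100 ng/ml are given with and without that pair. It was the pair whose removal gave the highest count. Several genes described below moved in the opposite direction in it, so calls without it are those of a fit that lacks the contrary pair. Replicate 3 of the 1 µg/ml experiment was less like its own control (r = 0.499) than like another control of that experiment (0.673), and so was replicate 5 of the 100 ng/ml experiment (0.729 against 0.815). The samples' description text names another drug, ABZ, on most arrays of the 100 ng/ml experiment. It also names another share of DMSO. Both go against the titles and exposure labels, which were used here, and this conflict was not resolved. Dose, share of DMSO and experiment changed together and cannot be told apart. In whole worms a change in the number of cells of a tissue and a change in RNA per cell cannot be told apart either. Marker lists of 7 tissues had mean levels from 6.65 to 9.90 in the 4 groups, and the strain's mutations were shared by all groups.

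*sbp-1* was measured in the control arrays of the 1 µg/ml experiment at log2 intensities of 7.37, 7.36, 7.21, 7.07 and 7.61 for replicates 1 to 5, and in the IVM arrays at 7.79, 7.88, 7.21, 7.35 and 7.36. The groups overlapped, and 4 of 5 pairs were higher with the drug, of which replicate 3 by only 0.002, while replicate 5 was lower by 0.26. The log2 fold change was 0.19 (SE 0.12, 95% interval -0.08 to 0.47, adjusted p = 0.515). The change at 100 ng/ml was 0.06 (SE 0.14, adjusted p = 0.974), with pair differences from -0.59 in replicate 4 to 0.44 in replicate 1, and 0.22 (SE 0.10, adjusted p = 0.427) without replicate 4.

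*mdt-15* was measured at 6.75 to 6.91 in the control arrays of the 1 µg/ml experiment and at 6.65 to 7.27 in the IVM arrays. Replicates 1 and 2 were higher with the drug, by 0.35 and 0.49, and the other 3 pairs were lower, by 0.13 to 0.26. This gave a log2 fold change of 0.06 (SE 0.13, 95% interval -0.22 to 0.35, adjusted p = 0.885). The lower dose gave 0.04 (SE 0.14, adjusted p = 0.981), where 4 pairs were higher and replicate 5 lower by 0.63, and 0.03 without replicate 4. The probeset shared with R12B2.6 lay between 5.32 and 6.07 on all arrays, and its log2 fold changes were -0.06 and 0.10 at 1 µg/ml and 100 ng/ml (adjusted p = 0.833 and 0.938).

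*nhr-49* was the only one of the 8 genes with all 5 pairs on the same side at 1 µg/ml. Its control arrays read 7.98, 7.85, 7.03, 7.11 and 6.94 for replicates 1 to 5, and its IVM arrays 8.09, 8.09, 7.73, 7.37 and 7.003. Replicates 1 and 2 were high in both groups, so the groups overlapped although each IVM array stood above its own control, by 0.06 to 0.70. Its log2 fold change was 0.27 (SE 0.10, 95% interval 0.04 to 0.51), a 1.21-fold difference, with an adjusted p of 0.241 by limma. Of all probesets, 7.29% were higher in 5 of 5 pairs. The largest of the 5 differences was that of replicate 3, and without this pair the log2 fold change was 0.17. It was higher in 4 of 5 pairs at 100 ng/ml, with a log2 fold change of 0.13 (SE 0.09, 95% interval -0.07 to 0.32, adjusted p = 0.936), and of 0.15 (adjusted p = 0.623) without replicate 4.

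The partner receptors lay near 0 or were unlike between pairs. *nhr-80* read 5.63 to 6.83 over all arrays, and its log2 fold changes were -0.0025 (95% interval -0.19 to 0.18) at 1 µg/ml and -0.01 (-0.27 to 0.24) at 100 ng/ml, where it was -0.06 without replicate 4. *nhr-13* varied little within the 1 µg/ml experiment, 7.38 to 7.69 in controls and 7.34 to 7.60 with the drug. Its log2 fold change was -0.05 (95% interval -0.22 to 0.13, adjusted p = 0.853) at 1 µg/ml and 0.05 (-0.15 to 0.24, adjusted p = 0.966) at 100 ng/ml, with 0.05 without replicate 4 as well. The intervals of both receptors at 1 µg/ml reached no further than 1.13-fold upwards and 0.856-fold downwards.

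*nhr-66* read 7.36, 7.75, 6.68, 7.53 and 7.19 in the control arrays of replicates 1 to 5 and 7.77, 7.94, 7.28, 7.24 and 7.50 in the 1 µg/ml arrays. The IVM array was higher in 4 of 5 pairs, and lower by 0.29 in replicate 4. The fitted log2 fold change was 0.25 (SE 0.12, 95% interval -0.04 to 0.53, adjusted p = 0.393). In the 100 ng/ml experiment it was -0.03 (SE 0.10, 95% interval -0.24 to 0.18, adjusted p = 0.978), and 0.01 (adjusted p = 0.979) without replicate 4. The difference between the doses, 0.28 (SE 0.16), was the largest among the 8 genes and had an adjusted p of 0.793.

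**Figure D1:**
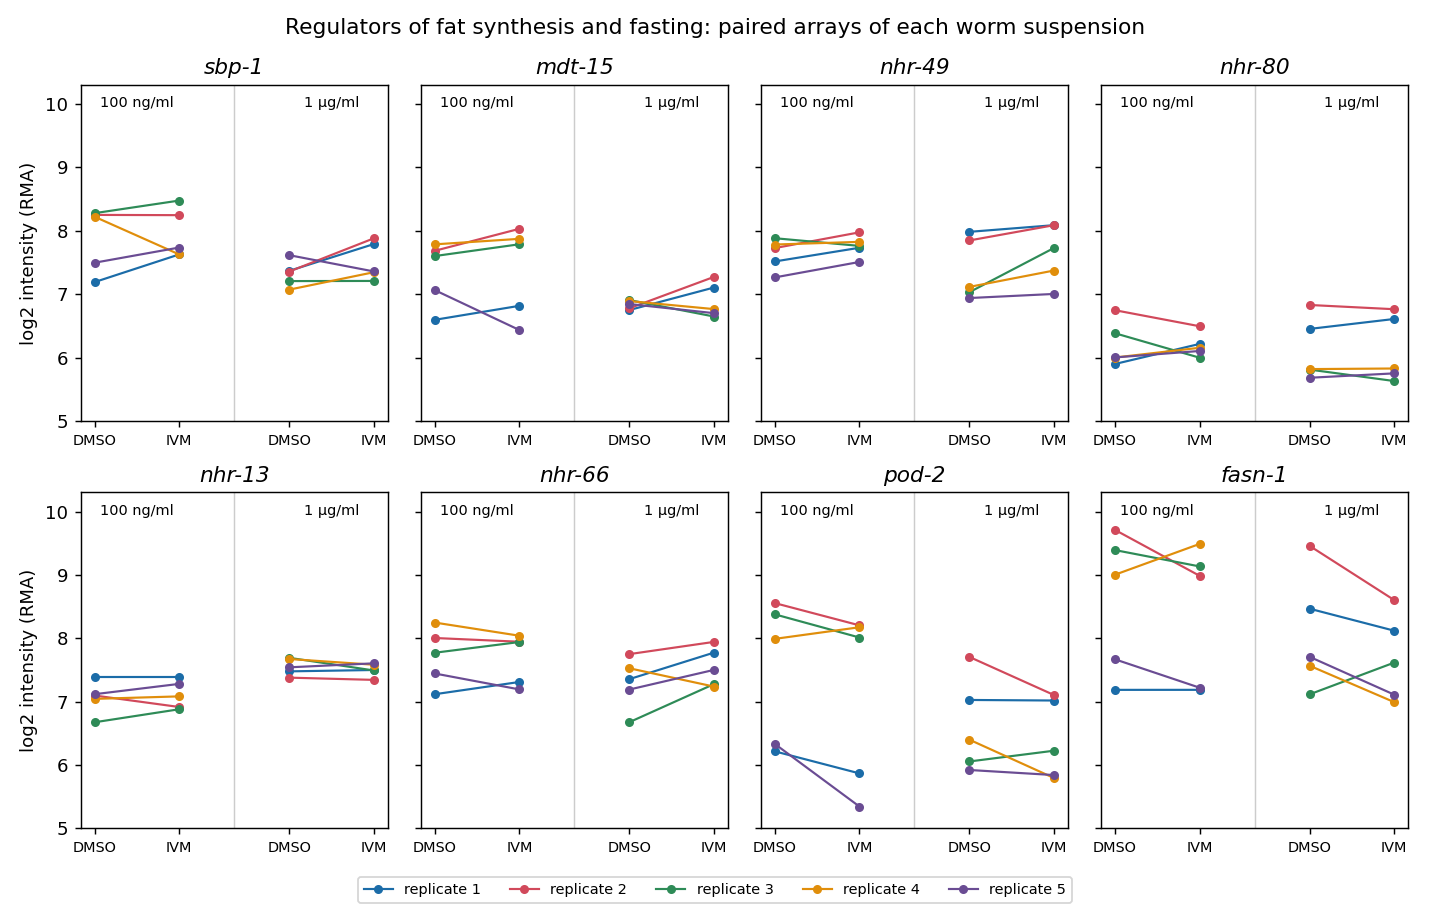
Log2 RMA intensity (y axis) of the 8 genes in every array, with lines joining the DMSO control and the IVM array of the same replicate, at 100 ng/ml on the left and 1 µg/ml on the right of each panel. The IVM array of *nhr-49* stands above its control in 5 of 5 pairs at 1 µg/ml, and the replicates of *pod-2* and *fasn-1* lie further apart than the ends of most lines.

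The synthase genes stood below 0 at both doses, and *fasn-1* at 1 µg/ml and *pod-2* at 100 ng/ml were the furthest from 0 among the 8. *pod-2* read 7.03, 7.71, 6.06, 6.40 and 5.92 in the control arrays of the 1 µg/ml experiment and 7.02, 7.10, 6.23, 5.80 and 5.84 with the drug, for replicates 1 to 5. It was lower in 4 of 5 pairs, by only 0.009 in replicate 1 and by 0.60 in replicates 2 and 4, and higher by 0.17 in replicate 3. The log2 fold change was -0.22 (SE 0.13, 95% interval -0.52 to 0.07, adjusted p = 0.471).

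At 100 ng/ml *pod-2* read 6.22, 8.55, 8.38, 7.99 and 6.33 in controls and 5.87, 8.20, 8.01, 8.17 and 5.35 with the drug. Replicates 1, 2 and 3 were lower by 0.35, 0.35 and 0.37, replicate 5 by 0.99, and replicate 4 was higher by 0.18. Its log2 fold change was -0.37 (SE 0.14, 95% interval -0.70 to -0.05), a 0.772-fold level, with an adjusted p of 0.936. Without replicate 4 it was -0.51 (SE 0.12) with an adjusted p of 0.0933, the smallest among the 8 genes in that fit. Then 2 of the 8 genes had an unadjusted p under 0.05, *pod-2* and *fasn-1*, against 12.3% of all probesets, and 0 of 8 were called.

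*fasn-1* read 8.47, 9.46, 7.12, 7.57 and 7.71 in the control arrays of the 1 µg/ml experiment and 8.12, 8.60, 7.62, 6.99 and 7.11 with the drug. Replicates 1, 2, 4 and 5 were lower, by 0.35, 0.85, 0.57 and 0.60, and replicate 3 was higher by 0.50. The fit gave a log2 fold change of -0.37 (SE 0.17, 95% interval -0.77 to 0.02, adjusted p = 0.351). Without replicate 3 it was -0.59 with an adjusted p of 0.0229, the only call for any of the 8 genes among the alternatives run. Replicate 3 was the only pair in which *fasn-1* was higher, so this call is that of a fit that lacks the contrary pair.

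In the 100 ng/ml experiment *fasn-1* read 7.19, 9.71, 9.39, 9.003 and 7.67 in controls and 7.19, 8.99, 9.13, 9.49 and 7.22 with the drug. The pair of replicate 1 was level, replicates 2, 3 and 5 were lower by 0.72, 0.26 and 0.45, and replicate 4 was higher by 0.49. The fitted change was -0.19 (SE 0.15, 95% interval -0.54 to 0.16, adjusted p = 0.938), and -0.36 (SE 0.12, adjusted p = 0.252) without replicate 4.

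**Figure D2:**
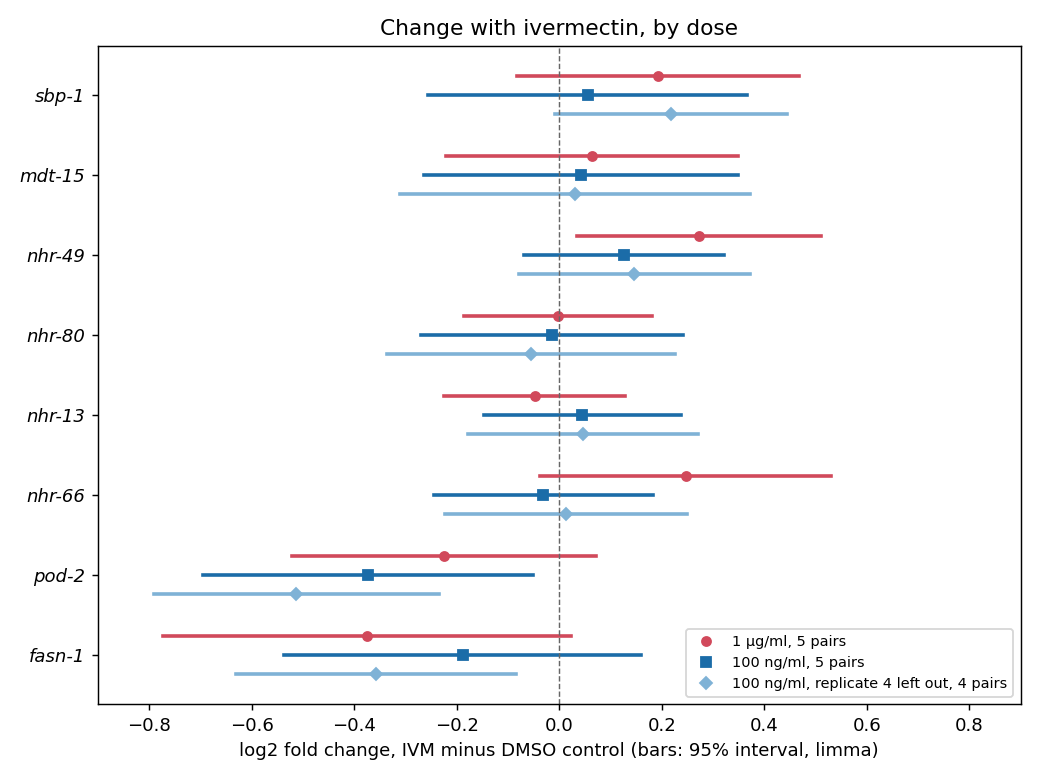
Log2 fold change of the 8 genes (x axis, IVM minus DMSO control, points) with its 95% interval from limma (bars), at 1 µg/ml, at 100 ng/ml, and at 100 ng/ml without replicate 4. The points of *pod-2* and *fasn-1* lie below 0 in all 3 fits, between -0.19 and -0.51, and no gene had an adjusted p under 0.05 in them.

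The 2 doses were compared directly by the contrast of their changes over all 20 arrays. None of the 8 genes passed the limma test of the difference after adjustment, with 0 of 8 also at an unadjusted p under 0.05 (6.79% of all probesets), and 0.00486% of all probesets were called. The differences, 1 µg/ml minus 100 ng/ml, ran from -0.19 for *fasn-1* (95% interval -0.74 to 0.37) to 0.28 for *nhr-66* (-0.07 to 0.63). All 8 intervals included 0.

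The levels of *pod-2* and *fasn-1* differed more between suspensions of worms than between drug and control. In the 100 ng/ml experiment the mean of the 2 arrays of a *pod-2* pair was 6.04 and 5.84 in replicates 1 and 5 and 8.38, 8.19 and 8.08 in replicates 2, 3 and 4. This range of 2.54, or 5.82-fold, was wider than that of 99.4% of probesets. The largest difference within a pair was 0.99, and the mean absolute difference 0.45. The *fasn-1* pair means split the same replicates, 7.19 and 7.44 against 9.25 to 9.35, a range of 2.16 or 4.47-fold. In the 1 µg/ml experiment the ranges were 1.52 for *pod-2* and 1.75 for *fasn-1*, with replicates 1 and 2 high, beside a median over all probesets of 0.55.

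The other 6 genes varied less between suspensions. Their ranges were 0.47 (*nhr-49*) to 1.15 (*mdt-15*) at 100 ng/ml, where the median over all probesets was 0.51, and 0.25 (*mdt-15*) to 1.08 (*nhr-80*) at 1 µg/ml. A range beyond the pair differences was not particular to the synthase genes. At 1 µg/ml the largest difference within a pair was 0.18 for *nhr-80*, and for *nhr-49* 0.70 beside a range of 1.06. For *mdt-15* it was 0.49, above its range. *sbp-1*, *mdt-15*, *nhr-49*, *nhr-80* and *nhr-66* were lowest in replicates 1 and 5 of the 100 ng/ml experiment, as *pod-2* and *fasn-1* were, whereas *nhr-13* was highest there, at 7.39 and 7.20. Both groups of the 100 ng/ml experiment had higher means than both groups of the 1 µg/ml experiment for *sbp-1*, *mdt-15*, *nhr-66*, *nhr-80*, *pod-2* and *fasn-1*, and lower means for *nhr-13*. Neighbouring groups in each order overlapped for all 8 genes, and the only groups apart were those of *sbp-1* with 100 ng/ml IVM (from 7.63) and with 0.01% DMSO alone (up to 7.61).

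Markers of several tissues were high and low in the same replicates, those of muscle by the widest range. The mean of 5 muscle markers was 7.67 and 7.91 in replicates 1 and 5 and 9.52 to 9.84 in replicates 2 to 4 of the 100 ng/ml experiment. In the 1 µg/ml experiment it was 8.55 and 9.17 in replicates 1 and 2 and 7.33 to 7.60 in the other 3. Intestine, germline, oocyte and hypodermis markers were also lowest in replicates 1 and 5 at 100 ng/ml, at means of 8.58 and 8.63, 8.52 and 8.45, 9.76 and 9.36, and 8.30 and 8.48. Hypodermis and neuron markers were also highest in replicates 1 and 2 at 1 µg/ml. For the muscle markers, between drug and control 0 of 5 were called by limma at either dose, with a median log2 fold change of 0.23 at 1 µg/ml and -0.05 at 100 ng/ml. Other lists went against this. Markers of oocytes were low in replicate 2 of the 1 µg/ml experiment, at a mean of 7.21 beside 9.59 to 9.90 in the others. Intestine and germline markers were lowest in that replicate too, at 8.17 and 7.59, whereas *pod-2* (7.41) and *fasn-1* (9.03) were highest in it. At 100 ng/ml sperm and neuron markers were lowest in replicate 4, at 6.83 and 6.93. The part of tissue make-up or stage in the levels of *pod-2* and *fasn-1* was not tested.

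**Figure D3:**
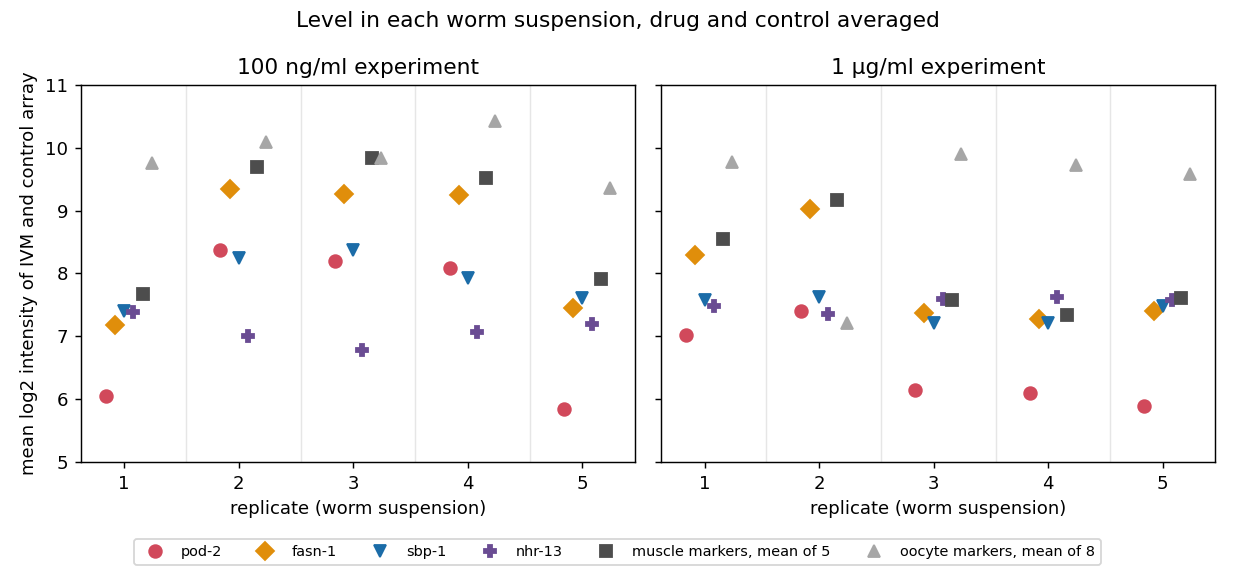
Mean log2 intensity of the IVM and control array of each replicate (y axis) for *pod-2*, *fasn-1*, *sbp-1* and *nhr-13* and for the means of 5 muscle and 8 oocyte markers, by replicate (x axis) in the 2 experiments. Replicates 1 and 5 at 100 ng/ml are low for *pod-2* (6.04 and 5.84), *fasn-1* and the muscle markers together.

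Pair differences of the 8 genes were set against each other over the 10 pairs, as a description. Those of *pod-2* and *fasn-1* ran together (Pearson r = 0.65, Spearman rho = 0.59), with r = 0.77 at 1 µg/ml and 0.69 at 100 ng/ml. Those of *nhr-66* and *pod-2* (r = 0.55, rho = 0.60) did so at 1 µg/ml (r = 0.86) but hardly at 100 ng/ml (r = 0.13). Those of *nhr-49* ran opposite to those of *nhr-13* (r = -0.75, rho = -0.79), and *sbp-1* ran opposite to *pod-2* (r = -0.57, rho = -0.48). All genes were read from the same arrays, and the 10 pairs come from 2 experiments. Among 8590 brighter genes, the one most like each of the 8 had a Pearson r of 0.91 to 0.96, which is the highest of many and was not tested. Among the 3 most alike of each were *tps-1*, a trehalose phosphate synthase, and *pygo-1* for *sbp-1*. For *nhr-49* they included *sec-10* and *acdh-11*, an acyl-CoA dehydrogenase, and for *nhr-13* *cox-19*. Those of *pod-2* included *mvk-1*, mevalonate kinase, and *let-2*, a collagen of basement membranes, and those of *fasn-1* F10C2.5. The closest were Y73F8A.20 for *mdt-15*, *wrt-5* for *nhr-80* and *fbf-2* for *nhr-66*. *unc-94* and *unc-96* also stood among those of *nhr-66*. Only some of these genes are named, and a shared function was not tested.

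Genes that these regulators act on or work beside were described in 10 lists. Of the 104 measured, 8 rose, 17 fell and the others were not called at 1 µg/ml, beside 2.11% and 1.37% of all probesets called higher and lower. These lists were drawn up with earlier results of the same arrays known, and the share is a description. In the 100 ng/ml experiment 0 of the 104 were called by limma, and 14 were without replicate 4, where 1.52% of all probesets were. The 25 calls at 1 µg/ml rest on the pairing and on single pairs, since 8 of them were left without replicate 1, 8 without replicate 4 and 1 in the fit without the replicate block.

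Desaturases changed in both directions, with 2 of 7 higher, 3 lower and a median log2 fold change of 0.10. NHR-49, NHR-80 and SBP-1 are known to control some of them, chiefly *fat-5*, *fat-6* and *fat-7*, which were the 3 that fell. *fat-7*, a stearoyl-CoA desaturase, fell by 1.19 (SE 0.13, adjusted p = 0.00338), from 9.19 ± 0.76 (SD, n = 5) in controls to 8.01 ± 0.73, and *fat-6*, its near copy, fell by 0.73 (adjusted p = 0.0119). *fat-5*, the palmitoyl-CoA desaturase, fell by 0.77. *fat-3*, an early step to polyunsaturated fatty acids, rose by 1.02 (SE 0.11, adjusted p = 0.00336), and *fat-4*, named after its values were seen, by 0.46. The 5 were changed the same way in 5 of 5 pairs.

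At 100 ng/ml *fat-7*, *fat-6* and *fat-5* stood at -1.09, -0.37 and -0.39 with all pairs (adjusted p = 0.936 for each by limma). In replicate 4 they were higher with the drug, by 1.54, 1.01 and 0.50. Without that pair they fell by 1.74, 0.72 and 0.62. The probesets of *fat-6* and *fat-7* may share signal, since these genes are much alike in sequence, and this was not tested.

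Elongation genes went one way where they changed, 0 of 11 higher and 3 lower, with a median of -0.34. *elo-2*, which extends palmitate, fell by 0.91 (SE 0.10), and *elo-5* and *elo-6*, which serve branched-chain fatty acids, fell by 1.102 and 0.69, each in 5 of 5 pairs. All 3 were also called at 100 ng/ml without replicate 4, a pair in which they were higher, by 0.53, 0.94 and 0.83. The supply of acetyl-CoA and malonyl-CoA had 0 of 6 called by limma, with *acly-1*, ATP citrate lyase, at -0.55 (adjusted p = 0.0668).

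In triglyceride synthesis 1 of 9 rose and 2 fell. *acs-22*, an acyl-CoA synthetase of the fatty acid transport protein family, rose by 0.93, while *dgat-2*, which adds the last acyl chain, and *acl-1*, an acyltransferase, fell by 0.68 and 0.64. In phosphatidylcholine synthesis, a pathway tied to SBP-1 activity in worms, 1 of 10 rose and 2 fell. *sams-1*, S-adenosylmethionine synthetase, fell by 0.89 (SE 0.14) and *cept-1* by 0.63, and *pmt-1*, a phosphoethanolamine methyltransferase, rose by 0.68. *pcyt-1*, which makes the CDP-choline of the pathway, stood at -0.96 with an adjusted p of 0.0521.

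A list of genes tied to NHR-49 or to fasting split evenly, with 3 of 11 higher and 3 lower and a median of 0.0019. The direction in which fasting moves each of them was not checked, so the split is no measure of a fasting response. *icl-1*, the glyoxylate cycle enzyme, rose by 1.70 (SE 0.20, adjusted p = 0.00506), from 8.998 ± 0.61 (SD, n = 5) to 10.7 ± 0.35. *acs-2*, a mitochondrial acyl-CoA synthetase, rose by 0.92 (adjusted p = 0.0466) and *fmo-2*, a flavin-containing monooxygenase, by 1.18 (adjusted p = 0.0468), both named after their values were seen.

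The members of this list that fell were *acdh-2* (by 0.99) and *acdh-1* (by 0.84), acyl-CoA dehydrogenases, and *cpt-5*, a carnitine palmitoyltransferase, by 0.71. *acs-2* at 100 ng/ml stood at 1.04 with all pairs, and it rose by 1.60 (adjusted p = 0.00667) without replicate 4, in which it was lower by 1.23.

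**Figure D4:**
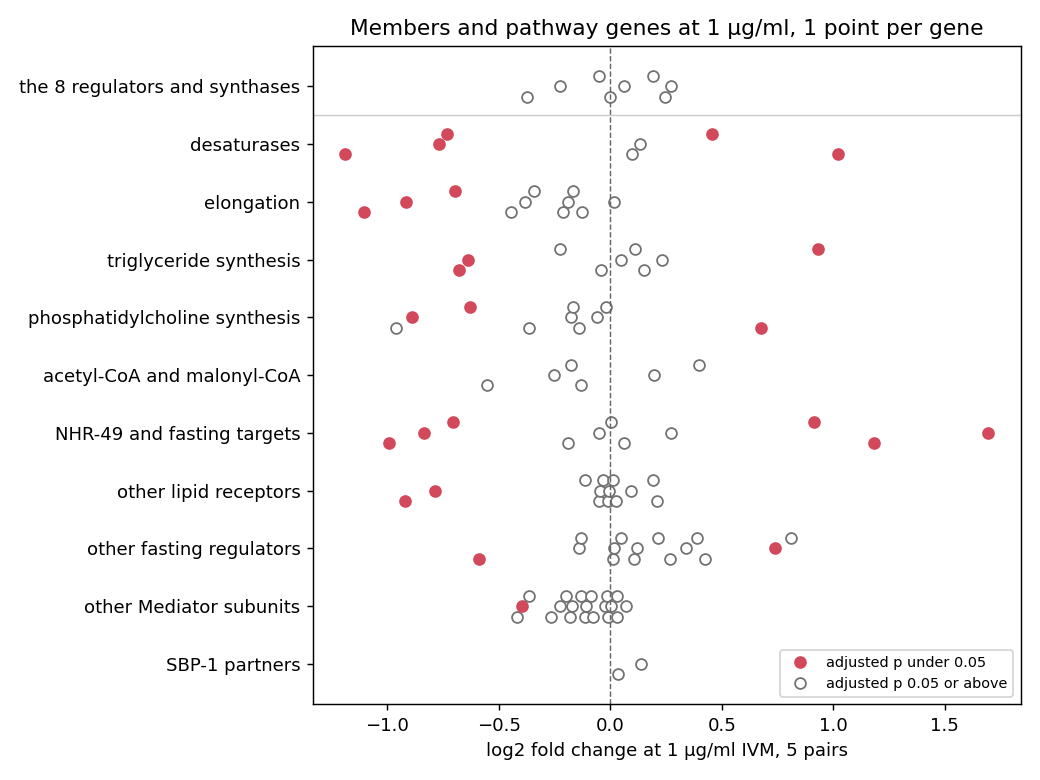
Log2 fold change at 1 µg/ml (x axis, 5 pairs) of the 8 genes and of the 104 genes in 10 pathway lists (rows), 1 point per gene, filled where the adjusted p was under 0.05. All 8 genes of the top row are unfilled and lie between -0.37 and 0.27, while filled points of the lists reach -1.19 (*fat-7*) and 1.70 (*icl-1*).

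Regulators outside the 8 genes changed in a few cases. Among other lipid-linked nuclear receptors 0 of 13 rose and 2 fell, *nhr-114* by 0.92 and *nhr-68* by 0.78, both known for roles in vitamin B12-linked metabolism. Among other fasting regulators 1 of 15 rose, the zinc finger factor *pqm-1*, by 0.74, and 1 fell, *mxl-3*, a repressor of lipase genes in fed worms, by 0.59. Of 20 other Mediator subunits measured, 0 rose and 1 fell, *mdt-18* by 0.40 (adjusted p = 0.048). The SBP-1 partners had 0 of 2 called by limma, with *scp-1* and *sir-2.1* at 0.04 and 0.14.

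Intestinal markers are given beside these counts because the pathway is largely intestinal. Of 10, *ges-1*, an esterase, rose by 0.91, *act-5*, the actin of microvilli, fell by 1.11, *pept-1*, a peptide transporter, fell by 0.71, and 7 were not called. The mean over the list lay at 8.11 to 8.77 with the drug and 8.22 to 8.79 in controls at 1 µg/ml. *elt-2*, the transcription factor that defines the intestine, stood at 0.25 (adjusted p = 0.218). The part of these changes in the pathway counts was not tested.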

How the data were processed

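RNA of 10 worm suspensions, each split between drug and control plates, was hybridised to 20 Affymetrix *C. elegans* arrays. The authors normalised the scans by RMA, and the deposited table holds log2 intensities per probeset, with 12 spike-in probesets left out here and 20563 tested without a filter. The authors also name limma, with versions not given in the sources used here. The paper assigned significance by the Rank Products algorithm, so its calls come from another test than the limma calls given here. The table holds no detection calls, and the number of arrays limits the precision.

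Log2 fold changes came from limma 3.58.1 (R 4.3.3, lmFit and eBayes), with a separate paired fit of the 10 arrays of each experiment, replicate being the block, and the dose contrast on 20 arrays with 10 blocks. P-values were adjusted by Benjamini-Hochberg over all probesets, threshold 0.05. The pairing comes from the methods, in which each suspension was split between drug and control plates, and same-numbered arrays correlated at r = 0.499 to 0.884 after group means were removed. Levels are deposited log2 intensities, and differences are log2 fold changes.

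The members and lists were chosen with earlier results of these data known. Pathway lists (10) and tissue marker lists (7) were described by counts and medians. Of the tissue lists, germline (8), oocyte (8), sperm (6), hypodermis (6), muscle (5) and neuron (6) had 0 genes called at 1 µg/ml by limma, and intestine 3 of 10. Named were all members, up to 4 genes per list with the smallest p at 1 µg/ml, and for each member genes among the 3 most alike over 10 pair differences. A gene of a list was read from its own probeset with the highest mean. Gene names come from the platform table. No probe sequence or coordinate was used. The fit was tested on simulated data. Alternatives were the unpaired fit, all arrays in 1 fit, renormalisation, median centring, a filter on dim probesets, another variance prior, array weights, the mean of a gene's probesets, a threshold of 0.10, and each pair left out.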

Additional observations from a re-analysis of the deposited data

How the results depend on the processing

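The count of called genes among the 8 stayed at 0 in all alternatives at both doses and for the dose contrast, except at 1 µg/ml without single pairs, where it ran from 0 to 1 (*fasn-1* without replicate 3). The count over all probesets, 715 at 1 µg/ml, was 1234 at an adjusted p of 0.10, 64 without the replicate block, and 205 to 707 with each pair left out, lowest without replicates 1 (205) and 4 (218). At 100 ng/ml it was 0 with all pairs and 0 to 313 with each pair left out, 313 without replicate 4. For the dose contrast it was 1, and 0 without the replicate block, 3 with array weights and 0 to 4 with each pair left out. Of the 25 pathway genes called at 1 µg/ml, 1 was called without the replicate block, 17 in the fit of all arrays, 23 of the 23 kept by the filter on dim probesets, and 8 to 20 with each pair left out, 8 without replicate 1 and 8 without replicate 4. None of these 25 changed sign at 1 µg/ml. None of the 8 genes was called in the main fits, and none in the fits without the block.

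Signs turned for changes near 0 that were not called under any of these alternatives. Array weights gave *nhr-80* 0.0253 at 1 µg/ml and 0.0269 at 100 ng/ml, *nhr-66* 0.018 at 100 ng/ml, and dose contrasts of -0.0105 for *mdt-15* and -0.00375 for *nhr-80*. Renormalisation gave *nhr-80* 9.69e-05 at 100 ng/ml and dose contrasts of -0.014 for *mdt-15* and -0.0177 for *nhr-80*. With each pair left out, values at 1 µg/ml ran from -0.0437 to 0.145 for *mdt-15*, from -0.0423 to 0.0421 for *nhr-80* and from -0.0573 to 0.137 for *scp-1*. Those at 100 ng/ml ran from -0.0400 to 0.218 for *sbp-1*, from -0.0338 to 0.21 for *mdt-15*, from -0.0958 to 0.0798 for *nhr-80*, from -0.0872 to 0.0239 for *nhr-66*, from -0.012 to 0.395 for *acs-22* and from -0.165 to 0.00704 for *mdt-18*. The dose contrasts ran from -0.0243 to 0.251 for *sbp-1*, from -0.146 to 0.103 for *mdt-15*, from -0.0822 to 0.0933 for *nhr-80* and from -0.00473 to 0.288 for *pod-2*. The cause was not tested. Each dose had 5 pairs, and their number limits the precision.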
